A study of Mus musculus with 20 samples.

Results

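Immediate early genes are the set described here: Fos, Fosb, Jun, Junb, Jund, Egr1, Atf3, Ier2, Ier3 and Nr4a1. The 10 genes were taken by their symbols from the gene table, which holds 31053 genes, and all 10 were found. Their levels were read in the stromal vascular cells of mouse interscapular brown adipose tissue (iBAT) by single-cell RNA sequencing, to set the effect of treatment beside the differences between libraries and between cell classes. The series has 20 libraries from 10 experiments, and in each experiment magnetic beads against lineage markers split the cells into a lineage positive, mainly immune fraction (Lin+) and a lineage negative, mainly stromal and vascular fraction (Lin-). Male C57BL/6J mice (C57) were kept at room temperature (RT), housed at 6 °C over 4 days (COLD), or given the beta 3 adrenergic agonist CL316,243 from an osmotic pump (CL, 0.75 nmol per hour over 4 days), with 2 experiments per group. Female mice of an Adrb1 line carried Adrb1 fl/fl alleles and received tamoxifen, either with a Pdgfra-CreER allele (KO) or as littermates without it (WT), and stayed at RT or spent 4 days in COLD, with 1 experiment per group. Pdgfra drives the recombinase, so deletion is limited to cells that express Pdgfra. All mice were 8 to 14 weeks old, each library pooled the tissue of 3 to 4 of them, and every sample went through collagenase digestion at 37 °C, red cell lysis, debris removal and bead separation before capture. The 4 RT libraries of the Adrb1 line were made with version 3 of the 10x Genomics kit and the other 16 with version 2, and the study's methods state that its RT and COLD libraries were also collected on different days, so kit, day and temperature cannot be told apart in that line, and sex and strain cannot be told apart from line.

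Immediate early genes are switched on within minutes of a stimulus without new protein synthesis, because the factors that start their transcription are already in the cell and wait for phosphorylation by growth factor, stress, calcium or cAMP signals. Fos and Fosb pair with Jun, Junb or Jund as the AP-1 transcription factor, Egr1 is a zinc finger factor of the growth response, Atf3 is a stress-responsive factor of the ATF/CREB family, Nr4a1 is an orphan nuclear receptor and a target of protein kinase A in brown fat, Ier2 is a small nuclear protein, and Ier3 is an anti-apoptotic stress protein. Digestion of tissue with enzymes at body temperature is also known to switch these genes on, so a level read from dissociated cells holds what the cells did in the animal and what they did during isolation.

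Of the 10 genes, 8 had an entry in the promoter table of RefSeq (GRCm38.p6), and Egr1 and Ier2 had none. The 250 bases upstream of the annotated start of Fos, Fosb and Nr4a1 are shown because they are of 2 Fos family subunits and of the cAMP-responsive receptor, whose levels are followed below. Capitals mark the 5-base core of the cAMP response element, TGACG, or its reverse complement CGTCA.
Fos, chr12:85473640-85473889, plus strand: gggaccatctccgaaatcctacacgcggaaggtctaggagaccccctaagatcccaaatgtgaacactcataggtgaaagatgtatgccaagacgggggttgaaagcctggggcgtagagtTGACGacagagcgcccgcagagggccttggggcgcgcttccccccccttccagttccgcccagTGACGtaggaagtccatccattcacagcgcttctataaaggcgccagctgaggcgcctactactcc
Fosb, chr7:19310046-19310295, minus strand: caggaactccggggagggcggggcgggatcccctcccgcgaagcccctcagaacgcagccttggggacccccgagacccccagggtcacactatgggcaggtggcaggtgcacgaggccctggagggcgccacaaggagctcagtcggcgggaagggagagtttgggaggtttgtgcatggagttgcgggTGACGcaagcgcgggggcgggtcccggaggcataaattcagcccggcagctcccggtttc
Nr4a1, chr15:101266596-101266845, plus strand: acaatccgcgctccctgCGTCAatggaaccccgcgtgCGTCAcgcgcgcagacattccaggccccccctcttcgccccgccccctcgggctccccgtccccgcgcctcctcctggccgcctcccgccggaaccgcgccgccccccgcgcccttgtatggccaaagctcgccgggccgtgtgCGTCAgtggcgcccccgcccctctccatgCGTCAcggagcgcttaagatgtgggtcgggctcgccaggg
Nr4a1 held 4 copies of the core, with the nearest first base 40 bases from the start, Fos held 2 (66 bases), and Fosb held 1 (60 bases). Junb and Atf3 held 1 each, so 5 of 8 windows had the core, against 17.8% of 32851 promoter windows of the same length. Both strands were searched. The full palindrome TGACGTCA, which contains the core, was in 0 of 8 (1.55% of all windows), and the AP-1 site TGANTCA in 0 of 8 (6.75%). The Egr1 site GCGGGGGCG was in Fosb and Nr4a1 (2.57% of all windows), and the serum response element core, the CArG box, was in 0 of 8 (1.47%). These are matches of letters in a short window, and an element farther upstream would not be seen in it.

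After filtering, 66339 of 89637 Lin- barcodes and 59935 of 67122 Lin+ barcodes were kept, with 7857160 to 31325800 corrected molecule counts (UMIs) per Lin- library and 9388620 to 41979800 per Lin+ library. Median UMIs per cell ran from 1204 to 3881 in Lin- and from 1864 to 4358 in Lin+ libraries. The Lin- library of C57 RT replicate 2 stood farthest apart: it held 22072 barcodes, of which 72.0% were over the limit of 10% mitochondrial UMIs and 6171 were kept, at a median of 1247 UMIs per cell. In the Adrb1 line 20.6% (WT) and 41.3% (KO) of Lin- barcodes were over this limit at RT, against 3.01% and 5.23% in COLD. In Lin+ these were 12.2% and 15.2% at RT, against 4.81% and 5.43% in COLD. The part of this in the differences of that line was not tested. The Lin+ and Lin- libraries of C57 CL replicate 2 shared 1098 barcodes, 17.1% of the smaller library, and the counts of calls over the classes without those cells stayed within 1.5 times of those given below. Adrb1, the deleted gene, had 9.98 counts in ASC1-like cells of the WT RT library and 42.2 in WT COLD, against 0 in KO RT, which allows up to 3, and 2.98 in KO COLD. In CPM these were 5.85, 3.77, 0 and 0.42, so the KO libraries were below both WT libraries in these cells. Over the whole Lin- library Adrb1 was 4.13 CPM in WT RT and 8.14 CPM in KO RT, and pericyte-like cells had 334 and 203 CPM. Cells were clustered without the 10 genes, and a class was named only from marker genes ("-like"). A cluster without such markers is called by its leading genes. Levels are given as CPM, the counts of a gene in the summed cells of a class in a library, scaled to the same UMI total in every sum. In these sums, a higher level per cell and a larger share of cells with the transcript cannot be told apart.

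The 10 genes were found in every class, and they differed between classes in distinct ways. Means over classes are taken over the libraries of all treatments. Erythroid-like cells, which should make little of these transcripts, gave the lowest mean of all 30 classes for every gene, from 9.01 CPM for Ier3 to 36.0 CPM for Junb. This class was found in Lin+ libraries only and its counts are those left after the correction for free RNA, so it was not tested as a floor for other classes. The AP-1 subunits did not share one leading class. Fos was highest in vascular smooth muscle-like (VSMC-like) cells, 4674 ± 1235 CPM (SD, n = 10 libraries), then pericyte-like cells, 3792 ± 1516 CPM. Jun was highest in pericyte-like cells, 2553 ± 989 CPM. Type 2 innate lymphoid-like (ILC2-like) cells had the highest mean of Fosb, 2524 ± 943 CPM, of Junb, 7623 ± 2281 CPM, and of Jund, 2772 ± 930 CPM. Neutrophil-like cells came next for Junb at 4775 ± 1538 CPM, and B-like cells for Jund at 2650 ± 726 CPM.

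Among the other 5 genes, Egr1 had its highest mean in ASC1-like adipose stromal cells, 1562 ± 1433 CPM, and the next 5 classes, all of them Lin-, had means of 1401 to 1295 CPM. Atf3 was highest in Ly6c2 monocyte-like cells, 966 ± 376 CPM, and Ier2 in neutrophil-like cells, 1333 ± 364 CPM. Ier3 had its highest mean in macrophage-like (MAC-like) cells, 740 ± 324 CPM, but there the C57 means were 1065 CPM at RT, 633 CPM in CL and 379 CPM in COLD, and in COLD and CL other classes were higher. For Nr4a1, Ace monocyte-like cells had 1448 ± 283 CPM and ILC2-like cells 1427 ± 314 CPM, and the next class, VSMC-like, had 648 ± 240 CPM. The intervals of mean ± SD of the 2 leading classes overlapped for all 10 genes, and for Nr4a1 those of the second and the third class did not. Of the 29 neighbouring pairs in the order of classes 0 to 2 were apart for any gene. Neighbours in an order sorted by mean are close by construction, and the SD spans all treatments and both lines. The overlap therefore does not show that classes are alike. Exact ranks are not read as differences between neighbours.

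**Figure D1:**
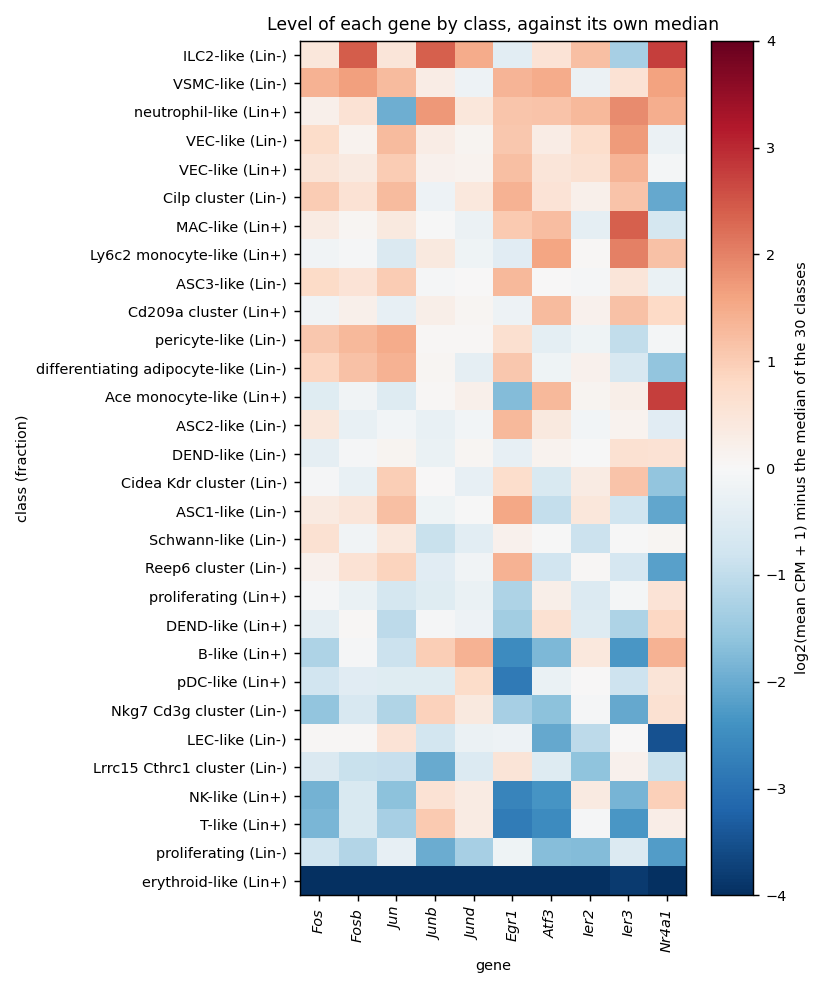
Each column is a gene and each row a class with its fraction. Colour gives log2(mean CPM + 1) over libraries minus the median of the 30 classes for that gene, so the map is read down a column. Erythroid-like cells are at the bottom for every gene, Nr4a1 stands out in Ace monocyte-like and ILC2-like cells, and Egr1 in Lin- stromal classes.

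The share of the spread that went with the library differed between fractions. Over class sums of at least 50 cells, class accounted for 81.2% (Jun) to 92.9% (Junb) of the variance of log2(CPM + 1) in Lin+, and library for 1.56% (Nr4a1) to 10.3% (Jun). In Lin- class accounted for 39.9% (Jund) to 81.3% (Nr4a1), and library for 5.13% (Nr4a1) to 37.8% (Jund), with 35.7% for Egr1 and 24.9% for Junb. The library share includes the spread between groups of treatment and genotype. In Lin- that part was 25.2% for Jund, 21.2% for Egr1 and 7.16% for Junb. In Lin+ it was 8.71% for Jun, 8.22% of the 8.44% for Egr1, and 1.00% for Nr4a1. The Adrb1 line has 1 library per group, so group and library cannot be told apart there. Every one of the 10 genes had a larger library share in Lin- than in Lin+. These shares are a description with no test, since the class sums of a library share its cells and depth. Nr4a1, the gene with the largest class share in Lin-, was also the gene whose 2 leading classes stood apart from the third.

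The Lin- library of C57 RT replicate 2 was low for these genes. Its mean deviation from the class means was -1.97 on the log2 scale for Egr1, -1.69 for Junb and -1.26 for Fos, and all 10 genes were below 0 (the highest was -0.43, for Ier3). RT replicate 1 deviated by 0.76, 0.97 and 0.43 for Egr1, Junb and Fos. The Lin+ library of the same experiment as RT replicate 2 deviated by -0.04, 0.10 and -0.21 for these 3 genes. The RT libraries of the Adrb1 line were high in Lin-, with 1.53 (WT) and 1.33 (KO) for Egr1 and 0.91 and 0.90 for Jund. For Fosb and Jun they lay farther from the class means than RT replicate 2 did, with 1.14 and 1.05 against -1.02 for Fosb and 1.03 and 0.84 against -0.73 for Jun. RT replicate 2 was the lowest of the 6 C57 Lin- libraries in 91 of 130 pairs of gene and class, and RT replicate 1 the highest in 70. Over all pairs of a class and a gene of at least 20 CPM these shares were 10.8% and 6.86%. The mitochondrial share and the depth of RT replicate 2 moved with these values, and their part was not tested. The 10 genes were also present in the barcodes removed for their mitochondrial share: with mitochondrial genes left out of the total, that library had 10362 CPM of the 10 genes in removed and 4833 CPM in kept barcodes.

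**Figure D2:**
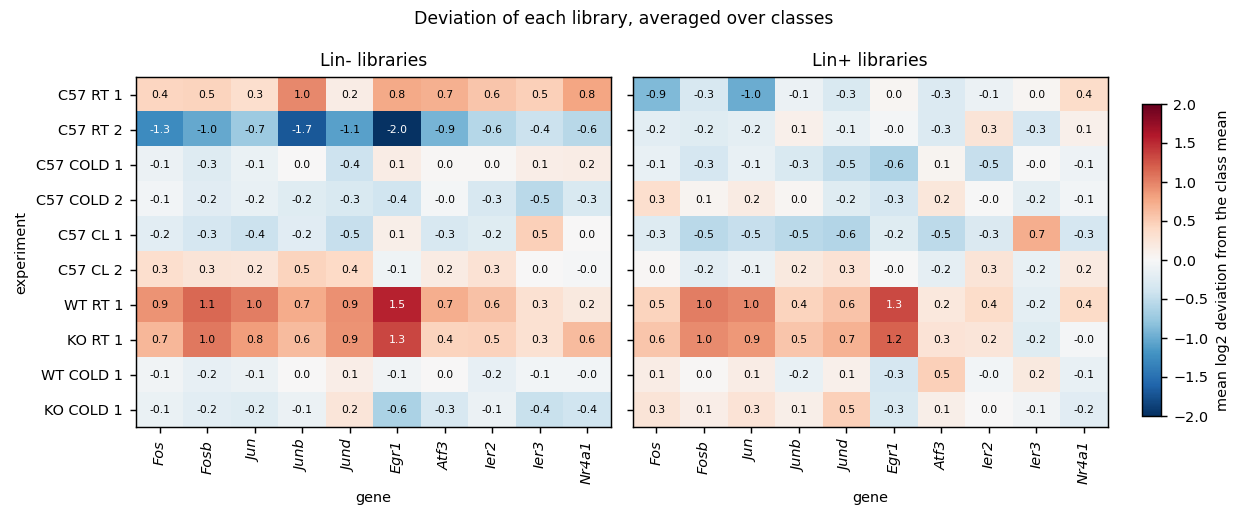
Each row is an experiment, each column a gene, and the left and right panels are the Lin- and Lin+ libraries. Colour and number give the mean over classes of a library's log2(CPM + 1) minus the mean of that class over libraries. The row of C57 RT replicate 2 is low in the Lin- panel and not in the Lin+ panel, and the RT libraries of the Adrb1 line are the highest Lin- rows for Egr1 and Jund.

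Within ASC1-like adipose stromal cells, the 2 C57 RT libraries were farther apart than the 2 COLD or the 2 CL libraries for Junb, Egr1 and Fos. Junb was 1941 CPM in RT replicate 1 and 185 CPM in RT replicate 2, against 933 and 756 CPM in COLD and 1084 and 2084 CPM in CL. Egr1 was 1797 and 352 CPM at RT, 970 and 759 CPM in COLD, and 1012 and 1261 CPM in CL. For both genes the 2 RT libraries lay on either side of the 2 COLD libraries. Fos had the same arrangement, with 2947 and 1229 CPM at RT, 1482 and 1580 CPM in COLD, and 1631 and 3344 CPM in CL. Per cell, the median share of UMIs that came from the 10 genes was 1.14% in RT replicate 1 and 0.200% in RT replicate 2, where the lower quartile was 0. The median depth of these ASC1-like cells was 5260 UMIs in RT replicate 1 and 1607 UMIs in RT replicate 2, and its part in the difference was not tested.

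With the 6 C57 libraries no change of the 10 genes passed the test in any Lin- class. For COLD against RT, 0 of 128 tests of a gene in a class passed over 13 classes (edgeR quasi-likelihood test, Benjamini-Hochberg adjusted p under 0.05 over all genes of the class), where 3.26% of all tests did. At an unadjusted p under 0.05 there were 10, and DESeq2 called 1. For CL, 0 of 128 passed, where 0.204% of all tests did, with 5 at an unadjusted p under 0.05 and 1 call by DESeq2. Between COLD and CL, 0 of 128 passed, where 0.309% of all tests did, with 6 at an unadjusted p under 0.05 and 0 calls by DESeq2. The COLD and CL comparisons share the RT libraries and are given side by side. With the 8 RT and COLD libraries of both lines and line as a term, 10 of 119 tests passed for COLD against RT, all of them lower and in 4 classes, where 5.69% of all tests were called lower, and the kit differs between temperatures in the libraries added.

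In ASC1-like cells the log2 fold changes of COLD against RT were -0.46 for Fos (SE 0.91), -0.30 for Fosb, -0.40 for Jun, -0.47 for Junb (SE 1.07), -0.33 for Jund and -0.41 for Egr1 (SE 0.88). Those of CL against RT were 0.33, 0.49, 0.23, 0.53, 0.63 and 0.05 for the same genes. The remaining genes had 0.74 (Atf3), -0.66 (Ier2), 0.03 (Ier3) and 0.22 (Nr4a1) for COLD. For CL they had 0.90, 0.16, 0.36 and 0.58. The SEs of all 20 values were 0.46 to 1.07, as large as or larger than most of the values. The median of the 10 genes was -0.36 for COLD and 0.43 for CL, where the median of all 12402 genes tested was 0.01 and -0.0014.

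**Figure D3:**
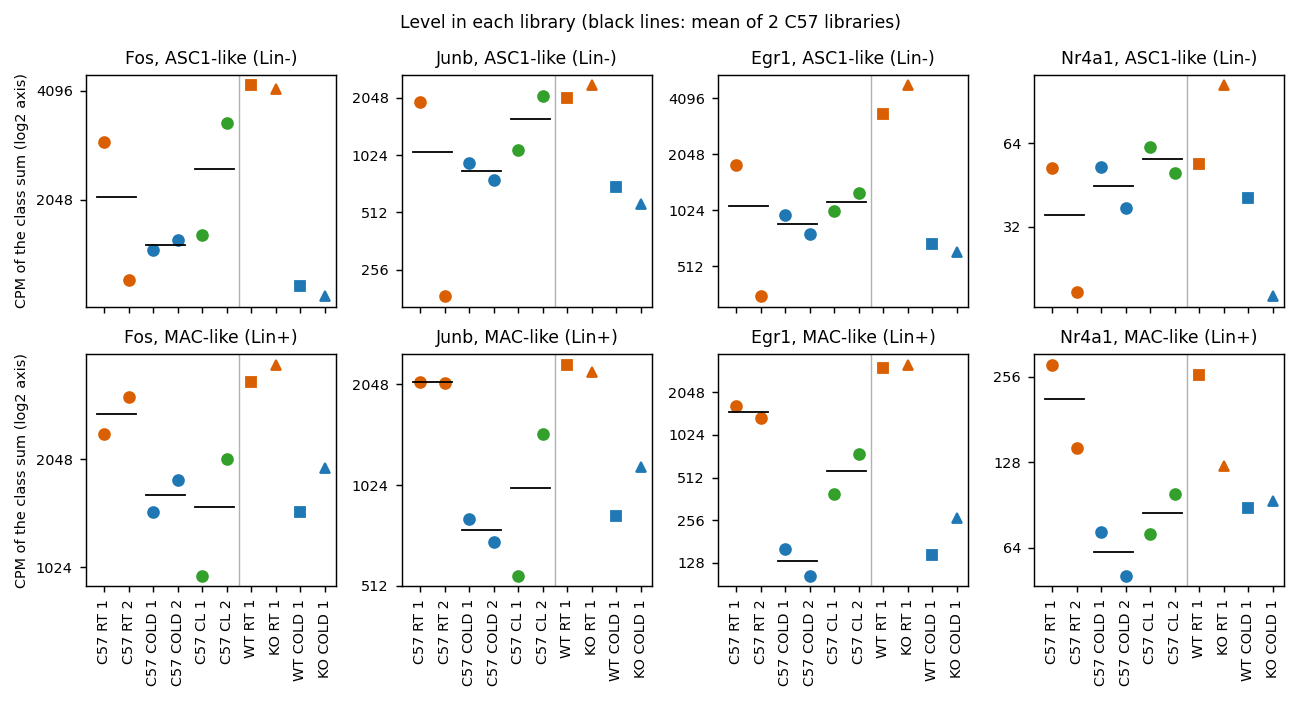
Each point is the level of a gene in the summed ASC1-like cells (top, Lin-) or MAC-like cells (bottom, Lin+) of one library, in CPM on a log2 axis. Circles are C57, squares WT and triangles KO, with RT orange, COLD blue and CL green. Black lines are means of 2 C57 libraries. The 2 C57 RT points enclose the COLD points in ASC1-like cells for Fos, Junb and Egr1, and both lie above the COLD points in MAC-like cells for Fos, Junb, Egr1 and Nr4a1.

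The outcome of COLD against RT in Lin- classes turned on which RT library was kept. Without RT replicate 1 there were 17 calls, 16 of them higher in COLD (2.04% of all tests were called higher), and in ASC1-like cells these included Atf3 (log2 fold change 2.71), Junb (2.67), Egr1 (1.77) and Nr4a1 (1.73). Without RT replicate 2 there were 10 calls, all lower in COLD (0.670% of all tests were called lower), and 7 of these were in the Reep6 cluster. With CL in place of COLD the calls were 19, all higher, without RT replicate 1 (1.18% called higher) and 2, both lower, without RT replicate 2 (0.100% called lower). In ASC1-like cells all 10 log2 fold changes of COLD against RT were above 0 without RT replicate 1, from 0.03 (Ier2) to 2.71 (Atf3), and all 10 were below 0 without RT replicate 2, from -0.06 (Atf3) to -1.41 (Junb).

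Cell composition differed between treatments too. ASC1-like cells were made of cluster 0, led by Cxcl9, Cxcl10 and Ccl2, and cluster 4, led by Smoc2 and Cxcl14. Cluster 0 held 89.5% and 91.9% of the ASC1-like cells in the COLD libraries, 3.86% and 5.70% in RT and 72.7% and 37.0% in CL. Within cluster 0 alone 0 of the 10 genes passed for COLD against RT (0.506% of all genes did, and 2 of the 10 had an unadjusted p under 0.05), and within cluster 4 alone 0 passed (1.24% did, and 0 of the 10 had an unadjusted p under 0.05). In the Reep6 cluster all 10 log2 fold changes of COLD against RT were below 0, from -0.59 to -2.01, and 4 had an unadjusted p under 0.05, with none passing after adjustment, where 14.5% of all genes passed. Egr1 in that cluster was 2236 and 662 CPM at RT, 731 and 559 CPM in COLD, and 1077 and 965 CPM in CL.

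MAC-like cells of the Lin+ fraction gave a different picture, with 7 of the 10 genes lower in COLD than at RT. The median depth of these cells was 2850 and 3501 UMIs at RT, 6085 and 6321 UMIs in COLD, and 3544 and 5298 UMIs in CL. Their median mitochondrial share was 3.94% and 1.12% at RT, 0.467% and 0.0720% in COLD, and 0.0117% and 3.50% in CL. The class was also made of mostly different clusters at RT and in COLD, as given below, so its falls are not those of 1 kind of cell. The part of depth, mitochondrial share and this makeup in the changes was not tested. At RT Egr1 had 1634 and 1347 CPM, against 161 and 104 CPM in COLD, and 395 and 751 CPM in CL. The 3 treatments did not overlap, and the fall from RT to COLD was 10.9-fold (log2 fold change -3.44, SE 0.38, edgeR adjusted p = 0.000264). Ier2 was 601 and 880 CPM at RT, 130 and 102 CPM in COLD, and 185 and 453 CPM in CL, a fall of 6.17-fold in COLD (log2 fold change -2.63, SE 0.42, edgeR adjusted p = 0.00149). Nr4a1 was 283 and 144 CPM at RT, 73.0 and 51.1 CPM in COLD, and 71.5 and 99.0 CPM in CL. All 4 treated libraries lay below both RT libraries, and the fall in COLD was 3.29-fold (log2 fold change -1.72, SE 0.33, edgeR adjusted p = 0.00333). Ier3 was 1171 and 959.5 CPM at RT, 440 and 319 CPM in COLD, and 594 and 673 CPM in CL, a fall of 2.70-fold in COLD (log2 fold change -1.44, SE 0.25, edgeR adjusted p = 0.00210).

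All 5 AP-1 subunits had log2 fold changes below 0 in the same cells, and 3 of them passed. Jund (log2 fold change -1.51, SE 0.40), Junb (-1.41, SE 0.42) and Fosb (-1.28, SE 0.34) fell in COLD, with edgeR adjusted p of 0.0141, 0.0246 and 0.0148. Junb, for one, was 2079 and 2067 CPM at RT, 811 and 693 CPM in COLD, and 549 and 1458 CPM in CL. Fos was 2416 and 3056 CPM at RT, 1463 and 1795 CPM in COLD, and 970 and 2056 CPM in CL, a log2 fold change of -0.69 that did not pass (edgeR adjusted p = 0.168). Jun had -1.08 (edgeR adjusted p = 0.0594) and Atf3 -0.68 (edgeR adjusted p = 0.116). With the replicate number as a block, Jun passed as well (log2 fold change -1.02). The 7 calls are to be read against the background of this class, in which 18.3% of 11143 genes were called lower and 36.9% in either direction for COLD against RT. The median log2 fold change was -1.42 over the 10 genes and -0.01 over all genes.

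In MAC-like cells all 10 log2 fold changes of CL against RT were below 0, with a median of -0.93, and Egr1 (-1.34) and Nr4a1 (-1.31) passed, where 7.71% of all genes did. This count turned on single libraries: without CL replicate 2, the CL library with the higher levels, all 10 passed, and without CL replicate 1, RT replicate 1 or RT replicate 2 none did. The share of all genes called lower moved with this count, from 8.38% without CL replicate 2 to 0.335%, 0.0252% and 0.559% without the other 3 in that order. Between COLD and CL, Egr1 was lower in COLD (log2 fold change -2.10, SE 0.36, edgeR adjusted p = 0.00982), the 1 of 10 genes that passed, where 7.78% of all genes did.

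All 10 log2 fold changes for COLD stayed below 0 in each of the 6 fits that left out 1 C57 library. They were -3.77 to -3.17 for Egr1, -2.87 to -2.28 for Ier2, -1.67 to -1.23 for Ier3 and -2.09 to -1.15 for Nr4a1. For Jund they were -1.57 to -1.42, for Junb -1.51 to -1.31 and for Fosb -1.40 to -1.09. Jun had -1.33 to -0.73, Fos -0.86 to -0.47 and Atf3 -0.83 to -0.46. The calls of Egr1, Ier2, Ier3 and Nr4a1 held in every such fit, and those of Jund, Junb and Fosb did not. With the 8 RT and COLD libraries of both lines and line as a term, 9 of the 10 were lower in COLD, where 28.4% of all genes were called lower. Kit and temperature cannot be told apart in the libraries this fit adds. MAC-like cells were also made of different clusters at RT and in COLD. Cluster 1, led by Gpnmb and Trem2 among others, held 93.5% and 96.1% of the MAC-like cells in COLD, 1.92% and 2.55% at RT and 47.4% and 30.5% in CL. Cluster 5, led by Cd209f, Cd163 and Lyve1, held the rest.

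In cluster 5 alone, with 117 and 49 cells in the COLD libraries, the 10 log2 fold changes of COLD against RT were again all below 0. Nr4a1 (log2 fold change -2.14, SE 0.37, edgeR adjusted p = 0.00407), Egr1 (-1.23, SE 0.30, edgeR adjusted p = 0.0295) and Ier3 (-1.13, SE 0.28, edgeR adjusted p = 0.0309) passed, where 1.93% of all genes were called lower. Nr4a1 in these cells was 288 and 144 CPM at RT, 59.0 and 48.9 CPM in COLD, and 79.0 and 100 CPM in CL. None of the 3 calls held in every fit that left out 1 library. Ier2 had -0.70 in cluster 5 against -2.63 in all MAC-like cells, and Egr1 -1.23 against -3.44.

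**Figure D4:**
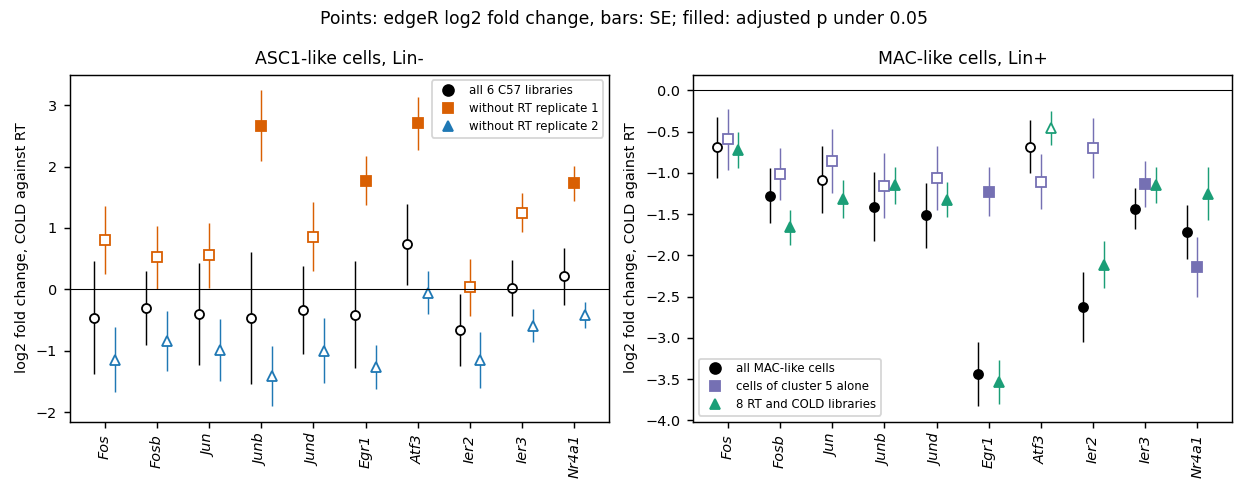
Points are edgeR log2 fold changes of COLD against RT and bars their SE, with filled points for an adjusted p under 0.05. Left, ASC1-like cells with all 6 C57 libraries, without RT replicate 1 and without RT replicate 2. The last 2 lie on either side of 0 for all 10 genes. Right, all MAC-like cells, cells of cluster 5 alone, and the 8 RT and COLD libraries of both lines, all below 0.

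Over all 13 Lin+ classes, 13 of 129 tests passed for COLD against RT, 12 lower and 1 higher, where 9.35% of all tests did. Beside the 7 in MAC-like cells, these were Egr1 (log2 fold change -1.31), Nr4a1 (-1.33) and Ier2 (-1.13) in Ly6c2 monocyte-like cells, where 9.99% of all genes were called lower, and Ier3 (-1.29) and Egr1 (-1.04) in the Cd209a cluster, where 6.09% were. None of the calls in these 2 classes held in every fit that left out 1 C57 library. The log2 fold changes over those fits were -1.49 to -1.12 (Egr1), -1.53 to -1.07 (Nr4a1) and -1.38 to -0.89 (Ier2) in Ly6c2 monocyte-like cells. In the Cd209a cluster they were -1.47 to -1.08 (Ier3) and -1.15 to -0.94 (Egr1). Egr1 in Ly6c2 monocyte-like cells was 263 and 350 CPM at RT, 112 and 146 CPM in COLD, and 207 and 346 CPM in CL, so the RT and CL libraries overlapped. The 1 call higher in COLD was Fos in erythroid-like cells, with 1.72 and 2.50 CPM at RT against COLD values of 26.2 and 49.1 CPM, which is 1.1 and 2.1 counts against 41.8 and 115.9 counts. This call was lost without RT replicate 1, RT replicate 2 or COLD replicate 2, with cells of at least 1000 UMIs, without top Scrublet scores and with the 8 RT and COLD libraries. With CL, 2 of 129 passed, where 1.19% of all tests did, both in MAC-like cells. For COLD against CL 4 passed, where 1.60% did, Egr1 in MAC-like cells and Ier3 in the Cd209a cluster (-1.44), DEND-like cells (-1.13) and proliferating cells (-1.39). None of these 4 calls held in every fit that left out 1 C57 library. Over the whole Lin+ libraries Egr1 was lower in COLD than at RT (log2 fold change -1.65, edgeR adjusted p = 0.0276, where 11.1% of genes passed). Over the whole Lin- libraries 0 of 10 passed in any of the 3 contrasts, with 0 at an unadjusted p under 0.05 by edgeR, and for COLD against RT 0.0130% of all genes passed.

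The changes of the 10 genes differed between MAC-like and other Lin+ classes by the test of the difference itself, with library as a block. These comparisons were chosen after the data were seen, in the same libraries that gave MAC-like cells the most calls. They are therefore no independent support for a change particular to these cells. MAC-like cells were mostly cluster 5 at RT and mostly cluster 1 in COLD, and the part of this shift was not tested. For COLD against RT, the log2 fold change was lower in MAC-like than in B-like cells for 9 of 10 genes (5.45% of all genes). It was lower than in T-like cells for 10 (7.07%) and than in Ly6c2 monocyte-like cells for 9 (8.51%). Against the Cd209a cluster and dendritic-like (DEND-like) cells it was lower for 8 each (7.33% and 9.94%). In B-like and in T-like cells themselves 7 of the 10 log2 fold changes were above 0, with medians of 0.22 and 0.11. For Egr1 the change in MAC-like cells was lower by 2.72 on the log2 scale than in B-like cells (adjusted p = 3.50e-06 by edgeR). It was lower by 2.20 than in Ly6c2 monocyte-like cells (adjusted p = 0.000163 by edgeR). With CL the counts were 8, 5, 5, 5 and 6 in the same order, where 1.27%, 0.989%, 0.926%, 0.987% and 2.08% of all genes had a lower change. The 44 calls for COLD and the 29 for CL moved when 1 library was left out, and the 29 became 19 with DESeq2. The share of all genes in those fits is not given, so these moves are not read as results about the 10 genes.

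**Figure D5:**
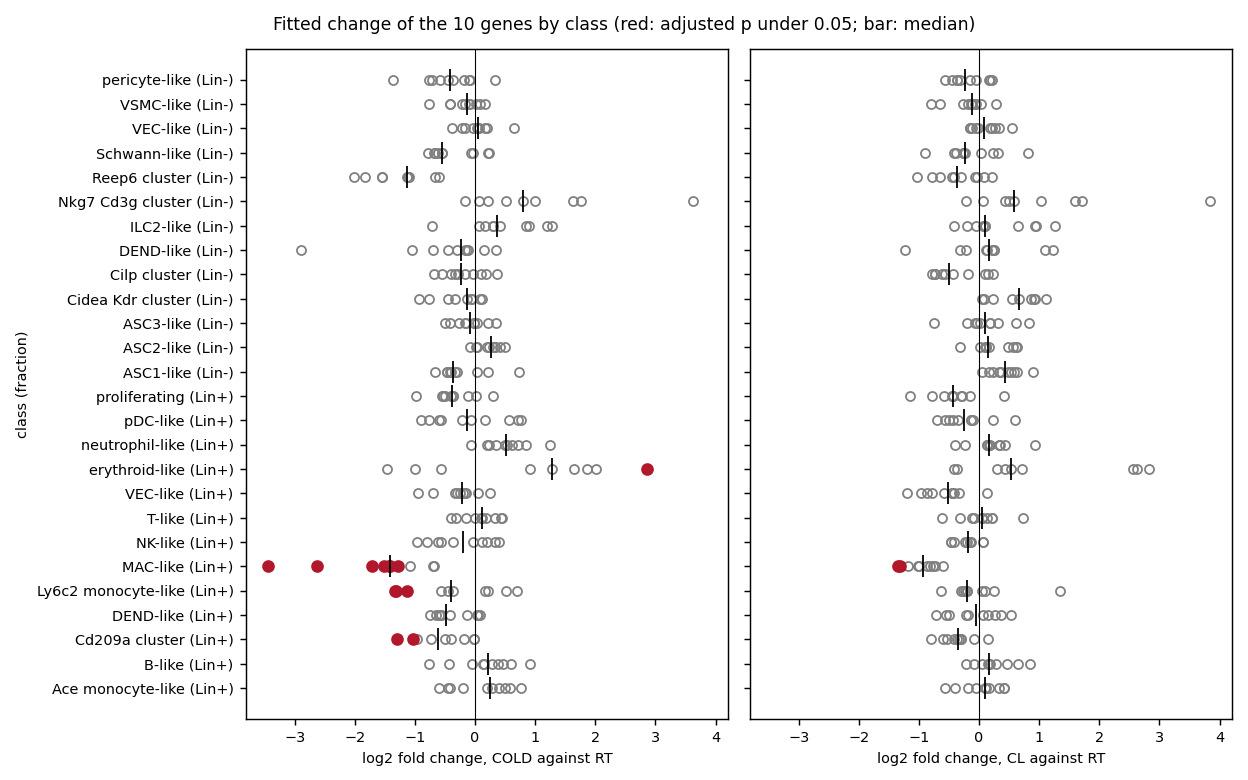
Circles are the log2 fold changes of the 10 genes in each class for COLD against RT (left) and CL against RT (right). Red marks an adjusted p under 0.05 and the bar the median. MAC-like cells have the lowest median of the Lin+ classes in both panels, and no Lin- class has a red point.

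Between Lin- classes, 2 of 60 such differences passed, which is not read as more than the background. For COLD against RT, 445 genes were called higher and 556 lower of 12255 for ASC1-like against ASC2-like cells. Against ASC3-like cells these were 387 and 372 of 11649, and against VEC-like cells 409 and 363 of 11945. For CL against RT they were 42 and 37, 16 and 21, and 29 and 20. Atf3 changed by 1.04 more on the log2 scale for COLD against RT in ASC1-like than in ASC3-like cells (SE 0.28, edgeR adjusted p = 0.0396, where 3.32% of all genes changed more), and Nr4a1 by 0.99 more for CL against RT in ASC1-like than in ASC2-like cells (SE 0.18, edgeR adjusted p = 0.0137, where 0.343% did). The call of Atf3 was lost with DESeq2 and without COLD replicate 1, COLD replicate 2 or RT replicate 2, whereas that of Nr4a1 held in each of the 6 fits that left out 1 C57 library, and DESeq2 gave it no adjusted p. For neither gene did the change within a class pass. In ASC1-like cells Atf3 was 152 and 35.8 CPM at RT, 167 and 169 CPM in COLD, and 139 and 216 CPM in CL. Nr4a1 was 51.9 and 18.6 CPM at RT, 52.5 and 37.4 CPM in COLD, and 61.9 and 50.02 CPM in CL.

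Both fractions of an experiment came from the same digestion and the same bead column, as flow-through (Lin-) or bound cells (Lin+). They differ in the cells retained, and they were made into separate libraries with separate correction for free RNA. A class found in both therefore sets the 2 fractions side by side, but does not set the separation step apart from these differences. In endothelial-like (VEC-like) cells 0 of the 10 genes differed between Lin+ and Lin- (edgeR, experiment as a block, where 12.8% of all genes did), and 1 had an unadjusted p under 0.05. The largest values were Nr4a1 (log2 difference 0.47, SE 0.20) and Egr1 (0.45, SE 0.24), higher in Lin+. In DEND-like cells 6 of 10 differed, where 34.1% of all genes did, with Ier3 (-1.35), Egr1 (-0.89) and Jun (-0.75) lower and Atf3 (0.79), Junb (0.66) and Nr4a1 (0.63) higher in Lin+. The DEND-like cells were 1 cluster in Lin-, in which Xcr1, Clec9a, Ccr7 and Fscn1 were all raised, and 2 clusters in Lin+, of which one raised Xcr1 and Clec9a and the other Ccr7 and Fscn1, so their makeup may differ between fractions. With the 6 C57 experiments alone 1 of the 10 passed, and without top Scrublet scores 1 did. In the Adrb1 line alone fewer than 6 passed. The share of all genes in these alternative fits is not given, so their counts are not read as results about the 10 genes. Proliferating cells were named from cell cycle genes alone and whole fractions hold different classes, so neither sets like cells side by side. In them 9 of 10 and 7 of 10 genes differed, where 66.5% and 77.9% of all genes did, and nothing is read from these counts.

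In the Adrb1 line, with 1 library per group and no test, COLD libraries were below RT libraries for all 10 genes in ASC1-like cells of both genotypes, where 51.0% (WT) and 53.7% (KO) of all genes of at least 20 CPM were lower. Egr1 in these cells was 3362 CPM in WT RT and 671 CPM in WT COLD, and 4824 CPM in KO RT and 612 CPM in KO COLD. Fos was 4243 CPM in WT RT and 1180 CPM in WT COLD, and 4152 CPM in KO RT and 1107 CPM in KO COLD. The median log2 difference of COLD and RT was -1.65 in WT and -1.92 in KO, and over all genes -0.02 and -0.08. In MAC-like cells it was -1.66 and -1.08, and over all genes -0.22 in both, with 10 of 10 lower in COLD (56.7% and 56.4% of all genes). All 10 were lower in ASC3-like cells as well (43.7% and 48.2%), and 9 (WT) and 8 (KO) in ASC2-like cells (49.7% and 53.0%). VEC-like cells of the Lin- libraries, with 258 to 374 cells each, had 9 (WT) and 10 (KO) lower (40.1% and 36.5% of all genes), and those of the Lin+ libraries, with 23 to 88 cells each, had 5 and 4 (54.7% and 57.3%). In ILC2-like cells 2 (WT) and 4 (KO) were lower (46.3% and 49.7%). The kit and the day of collection cannot be told apart from temperature in any of these values.

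Genotypes were compared within a temperature. Counting a gene only where the 95% exact Poisson intervals of KO and WT were apart, KO was higher for 4 and lower for 0 of the 10 genes in ASC1-like cells at RT, and higher for 2 and lower for 5 in COLD. The intervals were apart for 8.38% and 23.3% of all genes of at least 20 CPM there. Other Lin- classes went other ways. At RT KO was higher for 3 and lower for 6 in ASC3-like cells, 2 and 5 in ASC2-like cells, and 6 and 0 in VEC-like cells. In COLD these were 1 and 6, 4 and 4, and 0 and 4. All genes were apart there for 6.70%, 6.67% and 8.64% at RT, and for 10.7%, 9.21% and 7.72% in COLD. In MAC-like cells KO was higher for 4 and lower for 2 at RT, and higher for 8 and lower for 1 in COLD, where 5.73% and 22.6% of all genes were apart. The makeup of the MAC-like class differed between the COLD libraries, where cluster 5 held 18.2% of the MAC-like cells in WT and 31.0% in KO, against 69.9% and 68.6% at RT. Within cluster 5 KO was higher for 2 and lower for 2 at RT (median log2 difference 0.10), and higher for 9 and lower for 0 in COLD (0.88), where 3.60% and 14.0% of all genes were apart. These intervals cover counting error only, and they are narrower for genes with more counts.

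Other genes of the same response were read as lists in ASC1-like cells, with no test between these lists and the 10 genes. The lists were chosen with earlier results of these data known, and the genes named are those called in the same fits. They are therefore no independent support. Of 17 other immediate early transcription factors, 4 were higher in COLD than at RT and 0 lower, where 11.9% of all genes passed, with a median log2 fold change of 0.68. They were Maff (2.12), a small partner of AP-1 and CNC factors, Nfil3 (1.32), Egr2 (0.85) and Fosl1, with levels of 0.42 and 0 CPM for the RT pair, against COLD levels of 3.24 and 2.13 CPM, which lost its call when any 1 of these 4 libraries was left out. Maff was 5.09 and 10.96 CPM at RT, 27.8 and 28.4 CPM in COLD, and 12.4 and 14.3 CPM in CL. Both COLD libraries were above the other 4. Of 10 cAMP and CREB targets, Pde4b (2.14), a phosphodiesterase that degrades cAMP, and Crem (0.79) were higher in COLD. Pde4b was 9.85 and 15.3 CPM at RT, 49.4 and 48.8 CPM in COLD, and 20.97 and 9.52 CPM in CL. In the Adrb1 line it was 14.0 CPM in WT RT, 48.3 CPM in WT COLD, 20.8 CPM in KO RT and 31.9 CPM in KO COLD.

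Of 17 feedback inhibitors in ASC1-like cells, 2 were higher and 3 lower in COLD, to be read, like the lists that follow, against the same 11.9% of all genes. Trib1 (2.03) and the ERK phosphatase Dusp5 (1.87) were higher, and Spry1 (-1.75), Spry2 (-1.79) and Spry4 (-1.46), inhibitors of receptor tyrosine kinase signalling, were lower. Of 10 secreted and effector genes Ctgf (3.01) and Ptgs2 (1.26) were higher. Of 12 heat shock genes 1, Hsph1 (1.03), was higher, a share near that of all genes, and the median of the list was 0.48. Of the genes named from these lists, Maff, Pde4b, Trib1, Ctgf, Spry2 and Spry4 passed in each of the 6 fits that left out 1 C57 library, and the others passed in 2 to 4 of them. None of these 5 lists had a call by edgeR for CL against RT, where 0.847% of all genes passed. None of the lists had a call for COLD against RT within cluster 0 alone or within cluster 4 alone either. Pde4b had a log2 fold change of 1.84 in cluster 0 and 1.24 in cluster 4 (edgeR adjusted p = 0.147 and 0.105), and Maff -0.47 and 1.59 (0.758 and 0.122).

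In MAC-like cells these lists were counted against the 18.3% of all genes that were called lower for COLD against RT. Of 16 other immediate early transcription factors 2 were higher and 9 lower (median -1.03), of 9 secreted and effector genes 2 higher and 6 lower (median -1.09), of 10 cAMP and CREB targets 1 higher and 4 lower, and of 16 feedback inhibitors 1 higher and 5 lower (median -0.47). Egr2 (-2.67), Maff (-1.81) and Pde4b (-1.82) were lower in MAC-like cells, the opposite side from ASC1-like cells, although the difference between these classes of 2 fractions was not tested. Of 12 heat shock genes 0 were higher and 3 lower, with a median of -0.06. Their summed level in MAC-like cells was 7468 and 5673 CPM at RT, 5312 and 4550 CPM in COLD, and 4926 and 4954 CPM in CL. Over whole Lin- libraries the summed heat shock genes were higher in COLD, 9316 and 6533 CPM, than at RT, 5682 and 3498 CPM, and the 10 genes together were 5714 and 6264 CPM in COLD and 12684 and 4831 CPM at RT. RT replicate 1 had the highest level of the 10 genes among the C57 Lin- libraries and COLD replicate 1 the highest of heat shock genes.

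Among the genes whose levels were most like the mean of the 10 over 252 class sums were Zfp36 (Pearson r = 0.92), which encodes a protein that destabilises AU-rich mRNAs, Btg2 (0.89), an antiproliferative immediate early gene, Ccnl1 (0.85) and Ddx3x (0.84). After the mean of each class and fraction was subtracted they were Zfp36 (0.88), Btg2 (0.84), Srsf5 (0.81), Ddx5 (0.78) and Ppp1r15a (0.77). Of the 10 genes themselves, Fosb was the most like their mean within classes (0.90), and Ier3 (0.52) and Nr4a1 (0.60) the least. The points share libraries and depth, and each of the 10 genes is part of the mean it was compared with, so these values carry no test.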

How the data were processed

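The libraries were made with 10x Genomics kits. Per the labels and the study's methods, reads were aligned and counted with Cell Ranger 3.0.1 on mm10, and the authors deposited expected counts (estimated UMI counts per gene and barcode) from which SoupX had removed cell-free RNA. SoupX estimates that RNA separately in each library, so a level can shift between libraries. Between 97.2% and 99.6% of entries per library were not whole, so class sums were rounded to whole counts before testing.

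Cells with under 10% mitochondrial UMIs and at most 15000 UMIs were kept, with at most 4000 genes in Lin+ and at least 100 in Lin-. Doublets were not removed in the fits given. Leaving out the top 6% of Scrublet scores was an alternative. Cells of each fraction were clustered (scanpy 1.11.5, 2000 variable genes, 30 components, 30 neighbours, Leiden resolution 1) without the 10 genes and the other gene lists. Counts were summed per class and library of at least 20 cells and tested with edgeR 4.0.16 (quasi-likelihood test, TMM) in R 4.3.3 over the 6 C57 libraries, with Benjamini-Hochberg adjusted p under 0.05 over all genes of the fit. DESeq2 1.42.0 was an alternative. Each C57 replicate was a pool of mice, and p-values measure the spread between such pools. Replicates of a group differed by more than counting noise (chi-square over its degrees of freedom, 32.6 to 254). The Adrb1 line had 1 library per group and no test, and its 95% exact Poisson intervals cover counting error only.

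The text names all 10 genes. Of each other list it names genes called for COLD or CL against RT in ASC1-like cells, at most 6 a list by smallest adjusted p. It also names the 5 genes with at least 20 CPM on average and the highest Pearson correlation with the mean z-score of the 10. One gene that this rule selects is not reported here. The genes and lists were chosen with earlier results of these data known. Replicate numbers were taken to pair the C57 libraries, because the study's methods combined libraries of the same replicate experiment. The correlation of deviations of same-numbered libraries was 0.13 (RT and COLD), -0.13 (RT and CL) and 0.59 (COLD and CL) over whole Lin- libraries, and 0.39, 0.15 and 0.48 over whole Lin+ libraries. In the same order it was 0.13, -0.19 and 0.32 in ASC1-like and 0.31, -0.04 and -0.02 in MAC-like cells, so the values do not show the pairing throughout. On simulated counts for ASC1-like cells (12402 genes, COLD against RT), 37% of genes changed by 1 on the log2 scale and 85% of those changed by 2 were called. For MAC-like cells (11143 genes) these were 26% and 91%. The changed genes were drawn at random from all genes of the class, each simulated with its own spread. Only 100 genes were changed by each amount, whereas the data had 11.9% (ASC1-like) and 36.9% (MAC-like) of genes called. The adjusted threshold was therefore harder to pass in the simulation. The shares therefore do not say how often a change of the 10 genes would be called, and in ASC1-like cells their SEs, given above, were large. The comparisons within cluster 0, 4 or 5 alone, those of MAC-like with other Lin+ classes, and the fits without shared barcodes were chosen after seeing the data.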

Additional observations from a re-analysis of the deposited data

Results flagged for a closer look

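For COLD against RT the test of the difference between classes called a lower log2 fold change in MAC-like cells for 9 of the 10 genes against B-like cells, 8 against the Cd209a cluster, 8 against DEND-like cells, 9 against Ly6c2 monocyte-like cells and 10 against T-like cells. For CL against RT it did so for 8, 5, 6, 5 and 5 genes in the same order. These 29 calls moved when 1 library was left out and were 19 with DESeq2, where the share of all genes is not given. The shares of all genes in the main fits are given above. These comparisons were chosen after the data were seen. MAC-like cells were mostly cluster 1 in COLD and mostly cluster 5 at RT, and the part of this shift in the differences was not tested. Between stromal classes, Nr4a1 changed by 0.99 more on the log2 scale for CL against RT in ASC1-like than in ASC2-like cells (edgeR adjusted p = 0.0137, where 0.343% of all genes changed more). DESeq2 gave this difference no adjusted p. Atf3 changed by 1.04 more for COLD against RT in ASC1-like than in ASC3-like cells (edgeR adjusted p = 0.0396, where 3.32% of all genes did). The call of Atf3 was lost with DESeq2 and without COLD replicate 1, COLD replicate 2 or RT replicate 2. The barcodes removed for their mitochondrial share, which no comparison used, held the 10 genes above 3 counts in all 20 libraries. With mitochondrial genes left out of the totals, the 10 genes together were higher in removed than in kept barcodes in 15 libraries and lower in 5, with ratios of 0.692 to 2.14.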

How the results depend on the processing

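Of the counts of calls, 107 stayed within 1.5 times under the alternatives other than leaving out a library and 28 did not, and 72 and 48 did so when a library was left out. For COLD against RT, the 0 calls in Lin- classes became 10 with the 8 RT and COLD libraries, 1 with DESeq2 and 6 with no filter on low counts. The share of all tests called there went from 3.26% to 11.4%, 2.09% and 3.04%. The 13 calls in Lin+ became 29 of 120 with the 8 libraries and 20 of 130 with no filter. The share of all tests called there went from 9.35% to 27.5% and 6.49%, so the 29 are no gain over all genes. For CL against RT, the 0 in Lin- became 1 with DESeq2 and 1 with no filter, where the share of all tests went from 0.204% to 0.481% and 1.17%. The 2 in Lin+ became 4 with DESeq2, 1 at a mitochondrial limit of 5% and 12 with no filter. The share of all tests there went from 1.19% to 1.69%, 0.995% and 2.37%. The 4 for COLD against CL in Lin+ became 10 with no filter, where the share of all tests went from 1.60% to 2.45%. For the counts that follow the share of all genes is not given, so they are not read as results about the 10 genes. Over whole libraries, the 0 calls in Lin- became 1 with the 8 libraries, and the 1 in Lin+ became 3 with the 8 libraries, 2 with DESeq2 and 2 with no filter. Among the differences between stromal classes, the 1 for COLD became 6 with no filter and the 1 for CL became 0 with DESeq2, which gave that gene no adjusted p, and 5 with no filter, and the 29 for MAC-like cells and CL became 19 with DESeq2. Between fractions, the 6 in DEND-like cells became 3 in the Adrb1 line alone, 1 in the C57 experiments alone and 1 without top Scrublet scores, and the 0 in VEC-like cells became 1 in the C57 experiments alone. In MAC-like cells the 7 for COLD became 3 in cluster 5 alone, and the 2 for CL became 4 with DESeq2, 1 at the 5% limit, 9 with no filter and 1 in cluster 5 alone. The cause of these moves was not tested.

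When 1 library was left out, calls ranged from 0 to 17 (COLD against RT, Lin-), 4 to 23 (Lin+), 0 to 19 (CL against RT, Lin-), 0 to 29 (Lin+), 0 to 1 (COLD against CL, Lin-) and 0 to 14 (Lin+). They ranged from 4 to 10 in MAC-like cells for COLD and 0 to 10 for CL, 0 to 11 over whole Lin+ libraries, 0 to 10 (COLD) and 1 to 6 (CL) for stromal differences, 29 to 47 and 13 to 37 for those of MAC-like cells, and 0 to 2 for VEC-like, 4 to 6 for DEND-like and 7 to 8 for whole fractions. A group left with 1 library was assumed to vary like the others. The share of all genes called over the classes also moved between these fits, so the ranges are not read as a trait of the 10 genes. In ASC1-like cells Fos, Junb and Egr1 changed sign for COLD against RT without RT replicate 1, and their ranges over left-out libraries were -1.14 to 0.80, -1.41 to 2.67 and -1.26 to 1.77. They did so for CL against RT without RT replicate 2 (-0.34, -0.39 and -0.79) and without CL replicate 2 (-0.49, -0.22 and -0.29), with highest values of 1.60, 3.68 and 2.24.

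With the replicate number as a block, calls for COLD against RT were 17 in Lin+ and 0 in Lin- (11.05% and 4.10% of all tests), for CL against RT 3 and 0 (1.97% and 0.543%), and for COLD against CL 6 and 0 (2.61% and 0.697%). In MAC-like cells they were 8 for COLD and 3 for CL.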
